A study of Mus musculus with 9 samples.

Results

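The immunoglobulin kappa variable (Igkv) segments are the gene pieces from which a B cell builds the variable end of its kappa light chain. They were taken as every row whose gene symbol begins with Igkv and whose value was above 0 in at least 1 sample. The rule found 100 of the 21498 gene symbols in the files, and no Igkv symbol was repeated. Expression was measured by RNA sequencing of bulk colon tissue from 9 male ICR mice, an outbred stock, aged 5 weeks when the experiment began. The 3 Control mice received neither carcinogen nor antibody and gave normal colorectal mucosa. The 3 AOM/DSS + IgG Ab mice received azoxymethane (AOM, a colon carcinogen) once at 10 mg/kg, 3 cycles of dextran sulfate sodium (DSS, which injures the gut lining) in drinking water, at first at 2% for 7 days and in each later cycle at 1.5% for 5 days, and a negative control IgG at 1.5 mg/kg. The 3 AOM/DSS + anti-S100a9 Ab mice received the same AOM and DSS and, at 1.5 mg/kg, a rabbit polyclonal antibody that neutralizes S100a9, a calcium-binding protein released by neutrophils and other myeloid cells. Tissue was taken at week 18, and the labels call the tissue of both AOM/DSS groups colorectal adenocarcinoma. Each sample is labelled a biological replicate, and mice are the units of every test. The AOM/DSS groups are called IgG Ab and anti-S100a9 Ab from here on.

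In a developing B cell, 1 Igkv segment is joined to 1 of the short Igkj segments, and the joined exon is spliced to the constant gene Igkc. The segment is kept by all descendants of that cell, so in tissue RNA the share of each segment reflects how many B-lineage cells carry it and how much light chain RNA each makes. Plasma cells, which secrete antibody and fill the normal colon mucosa, make far more of this RNA than B cells do. In bulk tissue fewer cells of a type and less RNA per cell cannot be told apart. The share of 1 segment is also not the share of 1 clone, because unrelated cells can use the same segment and the junction with Igkj was not analysed here.

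All 100 segments matched the reference annotation (GENCODE M21, GRCm38), which calls each of them an IG_V_gene, and they form 20 families. They span chr6:67555497-70704177, with Igkc at chr6:70726435-70726966, and 38 lie on the strand of Igkc and 62 on the opposite strand. Their coding sequences were 335 to 371 bases long. The closest other segment was 66.7% to 98.6% identical (median 94.3%), and for 44 segments it was at least 95% identical, so the values of those segments are uncertain where reads could be shared. The sequences that follow are of segments on which the results turn. Igkv5-45 (chr6:69775750-69776344) was the most used segment of 2 mice and is shown with its closest relative Igkv5-43 (chr6:69823355-69823943), from which it differs in 5 of 347 aligned columns. Igkv1-88 (chr6:68862265-68863031) and Igkv4-57-1 (chr6:69544359-69544907) together dominated 1 mouse, and Igkv8-30 (chr6:70117061-70117620) was the most used of the segments that were nearly missing from 2 libraries. The coding sequences in GENCODE M21 (GRCm38, minus strand, read 5′ to 3′) are given by their last 300 bases, in lower case. Capitals mark the bases after the last cysteine codon, which are the germline start of the third complementarity-determining region, where the segment is joined to Igkj.
Igkv5-45: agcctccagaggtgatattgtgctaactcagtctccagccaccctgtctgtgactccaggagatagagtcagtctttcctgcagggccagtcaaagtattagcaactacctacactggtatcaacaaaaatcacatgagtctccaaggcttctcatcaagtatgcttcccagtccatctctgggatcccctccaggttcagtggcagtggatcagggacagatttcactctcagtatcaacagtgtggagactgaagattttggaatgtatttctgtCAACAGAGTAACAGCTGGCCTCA
Igkv5-43: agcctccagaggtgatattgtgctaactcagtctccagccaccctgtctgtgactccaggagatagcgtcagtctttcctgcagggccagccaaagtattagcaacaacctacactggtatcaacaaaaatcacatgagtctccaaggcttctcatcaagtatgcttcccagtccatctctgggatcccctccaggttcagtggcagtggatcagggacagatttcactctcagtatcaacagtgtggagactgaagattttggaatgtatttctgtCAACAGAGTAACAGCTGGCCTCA
Igkv1-88: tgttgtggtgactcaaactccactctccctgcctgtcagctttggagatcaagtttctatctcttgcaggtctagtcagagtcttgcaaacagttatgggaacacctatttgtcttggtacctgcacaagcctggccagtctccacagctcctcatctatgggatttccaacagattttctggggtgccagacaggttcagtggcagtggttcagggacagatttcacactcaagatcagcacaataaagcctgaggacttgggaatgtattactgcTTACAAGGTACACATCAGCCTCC
Igkv4-57-1: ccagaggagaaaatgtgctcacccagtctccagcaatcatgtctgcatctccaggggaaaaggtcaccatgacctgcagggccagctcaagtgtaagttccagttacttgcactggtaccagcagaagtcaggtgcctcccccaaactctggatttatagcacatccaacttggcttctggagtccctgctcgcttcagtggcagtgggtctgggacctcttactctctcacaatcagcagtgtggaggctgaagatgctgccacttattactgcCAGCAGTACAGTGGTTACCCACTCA
Igkv8-30: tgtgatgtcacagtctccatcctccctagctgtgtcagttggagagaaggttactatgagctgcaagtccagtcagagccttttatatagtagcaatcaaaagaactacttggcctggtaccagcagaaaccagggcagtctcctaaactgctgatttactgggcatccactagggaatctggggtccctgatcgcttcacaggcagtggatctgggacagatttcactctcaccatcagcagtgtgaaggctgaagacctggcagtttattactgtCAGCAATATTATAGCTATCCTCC
The reference is C57BL/6J, and the kappa locus of the outbred mice was not analysed here. Igkv1-88 was 84.8% identical to its closest relative Igkv1-110, so it is among the segments that are easier to tell apart. Igkv4-57-1, itself one of those nearly missing segments, was 93.3% identical to Igkv4-78 and Igkv8-30 was 92.6% identical to Igkv8-21.

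Values are FPKM, a level scaled for gene length and sequencing depth. Read totals per library were not analysed here, and the size of the steps between low values placed the depth of the libraries at 0.854 to 1.12 times that of Control replicate 1, a rough estimate. The 8 colon epithelial genes summed to 1843 to 3521 FPKM and the 6 smooth muscle genes to 518 to 4074 FPKM, but single markers moved with the groups. Slc26a3, the chloride exchanger of absorptive cells, averaged 157 FPKM in Control, 13.7 in IgG Ab and 164 in anti-S100a9 Ab (limma adjusted p = 0.0124 for IgG Ab vs Control). Car1, a carbonic anhydrase of the colon surface, averaged 276, 50.1 and 361 FPKM (limma adjusted p = 0.0331 for the same comparison). The adipocyte genes were highest in Control: Adipoq, a fat cell hormone, averaged 8.05, 0.411 and 0.0158 FPKM and Cfd, a complement factor made by fat cells, 65.1, 4.15 and 0.470. S100a9 itself was at 0.370 to 0.859 FPKM in Control, 63.1 to 267 in IgG Ab and 5.54 to 11.6 in anti-S100a9 Ab. Igkv segments were the larger part of variable light chain RNA in every mouse, at 85.1% to 98.4% of the summed Igkv and Iglv FPKM.

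Before the groups were compared, 2 libraries stood apart in their Igkv profiles: IgG Ab replicate 2 and anti-S100a9 Ab replicate 2. These mice belong to different groups, yet the same segments were near 0 in both. Of 70 segments that averaged at least 0.25% of the Igkv total in the other 7 mice, 26 were below 0.05% in IgG Ab replicate 2 and 28 in anti-S100a9 Ab replicate 2, and 26 were below it in both. These 26 segments were chosen for this pattern after the values were seen, so the numbers on them are a description. Igkv13-85 was just inside the limit, at 0.0435% in IgG Ab replicate 2, and Igkv4-55 was just outside it, at 0.0742% there.

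Together the 26 segments made up 42.2%, 29.7% and 28.1% of the Igkv total in the Control mice, 32.6% and 18.1% in IgG Ab replicates 1 and 3, and 30.2% and 20.2% in anti-S100a9 Ab replicates 1 and 3. In IgG Ab replicate 2 they made up 0.183%, and in anti-S100a9 Ab replicate 2 they made up 0.174%. No mouse lay between these ranges. Of the 26, 13 were listed at 0 in IgG Ab replicate 2 and 11 in anti-S100a9 Ab replicate 2, and none was at 0 in any of the other 7 mice.

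Igkv8-30 had the highest mean share of the 26. It stood at 2404, 308 and 560 FPKM in Control, at 253 and 38.2 in IgG Ab replicates 1 and 3, and at 277 and 177 in anti-S100a9 Ab replicates 1 and 3. In IgG Ab replicate 2 and anti-S100a9 Ab replicate 2 it stood at 1.02 and 1.35 FPKM. Igkv5-48 ranged from 25.7 to 712 FPKM in the 7 mice and was at 0.525 and 0.552 in the 2 libraries. Igkv4-57 ranged from 7.24 to 417 FPKM in the 7 and was listed at 0 in both. For these 3 segments the 2 libraries lay below all others with no overlap, while for Igkv6-25 anti-S100a9 Ab replicate 2 (4.12 FPKM) was above IgG Ab replicate 3 (1.64).

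**Figure D1:**
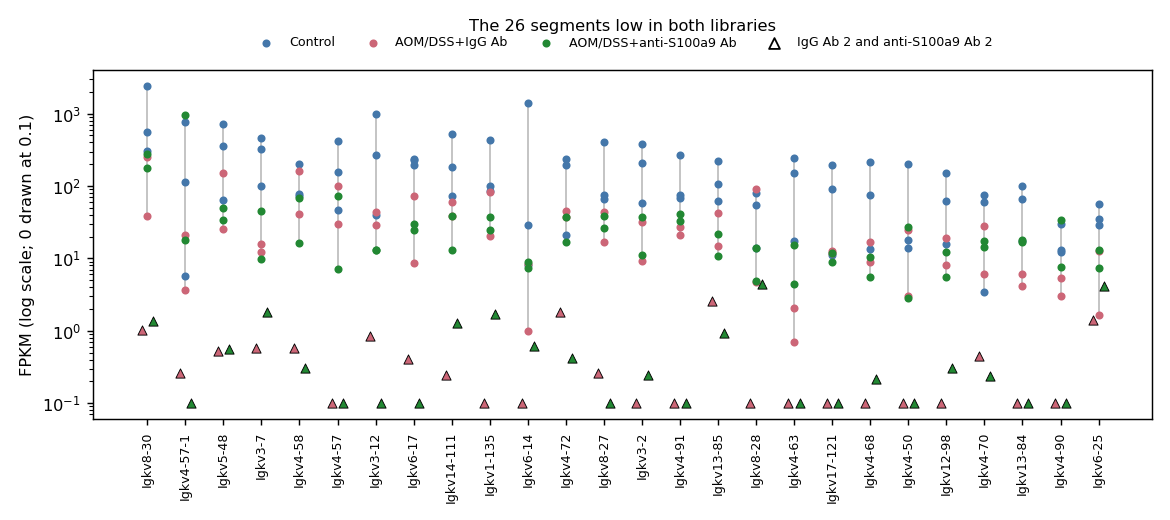
FPKM (log axis) of each of the 26 segments in the 9 samples, ordered by mean share in the other 7 mice; circles are those 7 samples coloured by group, outlined triangles are IgG Ab replicate 2 and anti-S100a9 Ab replicate 2, grey bars span the 7, and values of 0 are drawn at 0.1. The triangles stay at or below 4.43 FPKM for every segment, while Igkv8-30 lies between 38.2 and 2404 in the other 7.

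A search over all genes found no other gene with so strong a pattern. Of 10819 genes at 1 FPKM or more in each of the other 7 libraries, 18 were over 10-fold below the lowest of those 7 in both libraries, and all 18 were Igkv segments. No gene was over 10-fold above all 7 in both. The 26 low segments were spread along the locus, with 14 among the 50 segments nearer to Igkj1 and 12 among the 50 farther ones, and they came from 10 families, with 10 from Igkv4, the largest family. Use of a neighbour could be high. Igkv12-46, which lies next to the low segment Igkv5-48 on the map of segments in locus order, held 5.45% and 6.32% of the total in the 2 libraries. The median identity to the closest other segment was 94.9% for the 26 and 94.2% for the other 74.

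**Figure D2:**
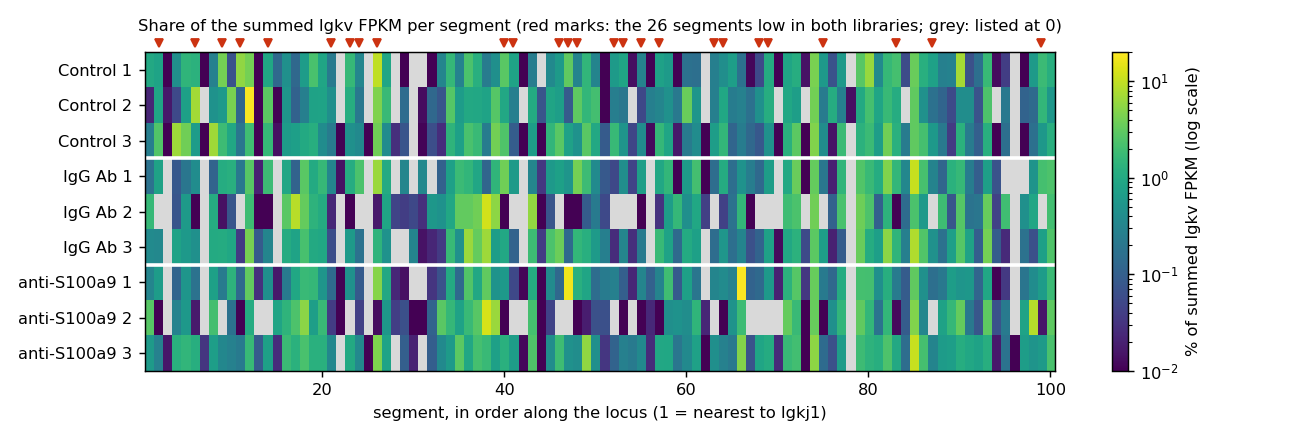
Share of the summed Igkv FPKM (colour, log scale, drawn from 0.01% to 20%; grey is a value of 0) for the 100 segments in order from Igkj1 in each of the 9 samples; red marks above the map show the 26 segments low in both libraries. Columns under red marks are dark or grey in IgG Ab replicate 2 and anti-S100a9 Ab replicate 2 and filled in the other 7 rows, and the marks are scattered from end to end of the locus.

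Over all 100 segments these were the 2 most alike profiles of the 36 pairs of mice. They shared 72.5% of their segment use (the sum over segments of the smaller of the 2 shares), above the 46.8% to 69.1% among the 21 pairs of the other 7 mice and the 34.6% to 54.1% between 1 of them and the other 7. The correlation of log2(FPKM + 0.1) across the 100 segments was 0.91 between them, 0.73 to 0.86 among the other 7, and 0.33 to 0.55 between the 2 sets. The points are segments of 1 locus measured in the same libraries and are not independent. No Igkv value above 0 was identical between any 2 files. Heavy chain variable (Ighv) profiles, over 98 segments, did not pair the libraries in this way: the correlation between the 2 was 0.45, while IgG Ab replicate 2 and Control replicate 3 reached 0.92. The genotype of the locus, the housing and the handling of these mice were not tested.

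The 2 libraries also had the highest Igkc of their groups. Igkc was at 15171, 8563 and 14442 FPKM in Control, 3571, 11860 and 3772 in IgG Ab, and 4277, 16841 and 2995 in anti-S100a9 Ab. Jchain, which links antibody units into polymers, was also highest in these 2 libraries within their groups, at 1974, 1156 and 1114 FPKM in Control, 431, 1236 and 298 in IgG Ab, and 634, 2578 and 365 in anti-S100a9 Ab. Igha, the constant gene of IgA, was at 2844 and 4274 FPKM in the 2 libraries and at 629 to 1044 in the other 4 AOM/DSS mice. So the 2 libraries were within or above the Control range for constant region RNA while nearly lacking 26 segments. Their summed Igkv over Igkc was the lowest of all samples, at 0.505 and 0.632, against 0.717 to 1.63 in the other 7. The main results are therefore given with and without these 2 libraries, a choice made after the data were seen.

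Segment use was broad in all mice and its leaders changed from mouse to mouse. Of the 100 segments, 58 were above 0 in all 9 samples, 47 were at 1 FPKM or more in all 9 and 4 were below 1 FPKM in all. The 10 segments with the highest mean share held 35.2% of the total on average, while the 50 lowest held 11.3%. The 10 were Igkv1-117, Igkv6-15, Igkv5-45, Igkv8-30, Igkv10-96, Igkv1-88, Igkv1-110, Igkv4-57-1, Igkv12-46 and Igkv15-103. Across the samples 36 segments were among the 10 most used of at least 1 mouse, 15 of these in 1 mouse only, and Igkv10-96 alone was among them in all 9.

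Igkv10-96 held between 2.90% and 5.45% of the total in every mouse. Igkv1-117 was among the 10 most used of 8 mice, at 3.49%, 3.14% and 3.12% in Control, 10.5%, 2.30% and 8.01% in IgG Ab, and 3.13%, 4.78% and 10.6% in anti-S100a9 Ab. It reached 8% or more in 3 mice, all of them AOM/DSS mice, but the groups overlapped. Igkv15-103, the only member of its family, stayed between 1.01% and 3.69%.

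Dominance of single segments was a feature of individual mice. In Control replicate 1 the first 3 segments were Igkv8-30 at 9.73%, Igkv9-124 at 7.28% and Igkv16-104 at 6.14%. Control replicate 2 was led by Igkv6-15 at 19.3%, followed by Igkv3-7 at 7.03% and Igkv8-30 at 4.65%. Control replicate 3 was the most even of the Control mice, with Igkv3-10 at 6.75%, Igkv3-4 at 6.59% and Igkv10-96 at 4.75%. The leaders of the 3 Control mice thus differed, although none had received AOM or DSS.

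In IgG Ab, replicate 1 was led by Igkv1-117 at 10.5%, Igkv8-30 at 6.37% and Igkv1-110 at 4.67%. Replicate 2 was led by Igkv5-45 at 11.9%, Igkv6-20 at 8.78% and Igkv4-53 at 5.81%. Replicate 3 was led by Igkv1-117 at 8.01%, Igkv5-45 at 6.52% and its near copy Igkv5-43 at 6.45%. Igkv5-45 was below 1% in all 3 Control mice, at 0.237%, 0.810% and 0.240%, and also in IgG Ab replicate 1, at 0.118%.

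In anti-S100a9 Ab, replicate 1 was the most skewed sample of the series: Igkv1-88 held 19.2% and Igkv4-57-1 held 17.2%, and Igkv8-30 came next at 4.96%. It took 6 segments to reach 50% of its Igkv total, against 9 to 14 in the other mice. Replicate 2 was led by Igkv5-45 at 12.6%, Igkv1-133 at 8.54% and Igkv12-46 at 6.32%. Replicate 3 was led by Igkv1-117 at 10.6%, Igkv4-59 at 5.66% and Igkv10-96 at 5.45%.

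**Figure D3:**
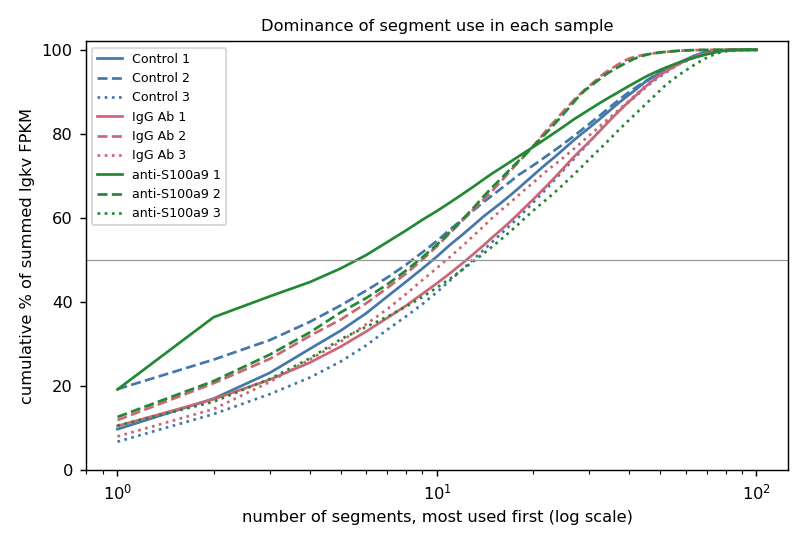
Cumulative share of the summed Igkv FPKM against the number of segments, most used first (log axis), with 1 line per sample coloured by group and drawn solid, dashed or dotted for replicates 1 to 3; the grey line marks 50%. The solid green line of anti-S100a9 Ab replicate 1 crosses 50% at 6 segments and the other 8 at 9 to 14, and the dashed lines of IgG Ab replicate 2 and anti-S100a9 Ab replicate 2 nearly coincide.

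Segments that held at least 5% in a mouse and at least 3 times their median share in the other 8 occurred in 22 cases. The steepest was Igkv4-57-1 in anti-S100a9 Ab replicate 1, at 960 FPKM and 57.6 times its median share elsewhere. Igkv1-88 in the same mouse stood at 1071 FPKM and 48.9 times its median share. Igkv6-14 in Control replicate 1 was as uneven, at 1405 FPKM there and 0 to 29.1 FPKM in all others, which is 44.6 times its median share. Igkv3-4 in Control replicate 3 was at 973 FPKM and 32.3 times its median share. Igkv1-133 in anti-S100a9 Ab replicate 2 was at 910 FPKM and 18.5 times its median share, and Igkv3-7 in Control replicate 2 was at 466 FPKM and 16.5 times. Such cases were found in Control and in both AOM/DSS groups. The other cases were of Igkv6-20, Igkv5-45, Igkv3-10, Igkv6-15, Igkv12-46, Igkv4-53, Igkv9-124, Igkv4-59, Igkv16-104, Igkv5-43, Igkv1-110 and Igkv1-117, and ranged from 3.17 to 11.3 times the median.

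Evenness was summarized by the effective number of segments, the number of equally used segments that would give the same Shannon entropy. It was 41.6, 35.5 and 48.4 in Control, 46.1, 31.9 and 44.5 in IgG Ab, and 28.5, 31.8 and 50.0 in anti-S100a9 Ab. The groups overlapped in every comparison. The means were 41.8 ± 6.45 (SD, n = 3), 40.8 ± 7.77 and 36.8 ± 11.6, and two-sided exact permutation tests gave p = 0.9 for IgG Ab vs Control, p = 0.6 for anti-S100a9 Ab vs Control and p = 0.8 for anti-S100a9 Ab vs IgG Ab. With 3 mice against 3 the smallest p these tests can give is 0.1. Over the 74 segments outside the shared low set the effective number was 31.6 and 31.4 in the 2 libraries and 22.6 to 34.7 in the other 7, so there the 2 libraries were not apart. Without the 2 libraries the differences in the order above were 3.45, -2.57 and -6.02.

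The share of the single most used segment averaged 11.9 ± 6.53% in Control, 10.1 ± 1.96% in IgG Ab and 14.1 ± 4.49% in anti-S100a9 Ab (SD, n = 3). Exact permutation tests gave p = 0.9, 0.6 and 0.2 in the same order of comparisons. Without the 2 libraries the differences were -2.66, 2.98 and 5.64 percentage points. The 9 tests of levels and evenness had adjusted p-values of 0.6 or 0.9. Dominance was not shown to differ between the groups.

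The amount of Igkv RNA was compared apart from its evenness. Summed Igkv was 24705, 6624 and 14772 FPKM in Control, 3964, 5994 and 2704 in IgG Ab, and 5581, 10646 and 3884 in anti-S100a9 Ab. Every IgG Ab mouse lay below every Control mouse, though by a narrow margin between Control replicate 2 and IgG Ab replicate 2. The anti-S100a9 Ab mice overlapped both groups.

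On the log2 scale the summed level was 1.74 lower on average in IgG Ab than in Control, with means of 12.0 ± 0.574 and 13.7 ± 0.957 (SD, n = 3; exact permutation p = 0.1, the smallest possible). This is 0.298 times the Control level. The anti-S100a9 Ab group averaged 12.6 ± 0.737, which was 0.457 times Control (exact permutation p = 0.2) and 1.53 times IgG Ab (exact permutation p = 0.5). Without the 2 libraries the log2 differences were -2.04, -1.53 and 0.51. Over only the 74 segments outside the shared low set the first comparison was -1.44 and the groups overlapped, with IgG Ab replicate 2 at 5983 FPKM and Control replicate 2 at 4657. Relative to Igkc the differences from Control were -0.56 in IgG Ab and -0.09 in anti-S100a9 Ab on the log2 scale, and these values rested on the 2 libraries with the lowest ratio. Without them they were -0.29 and 0.26, so the direction turned for anti-S100a9 Ab.

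**Figure D4:**
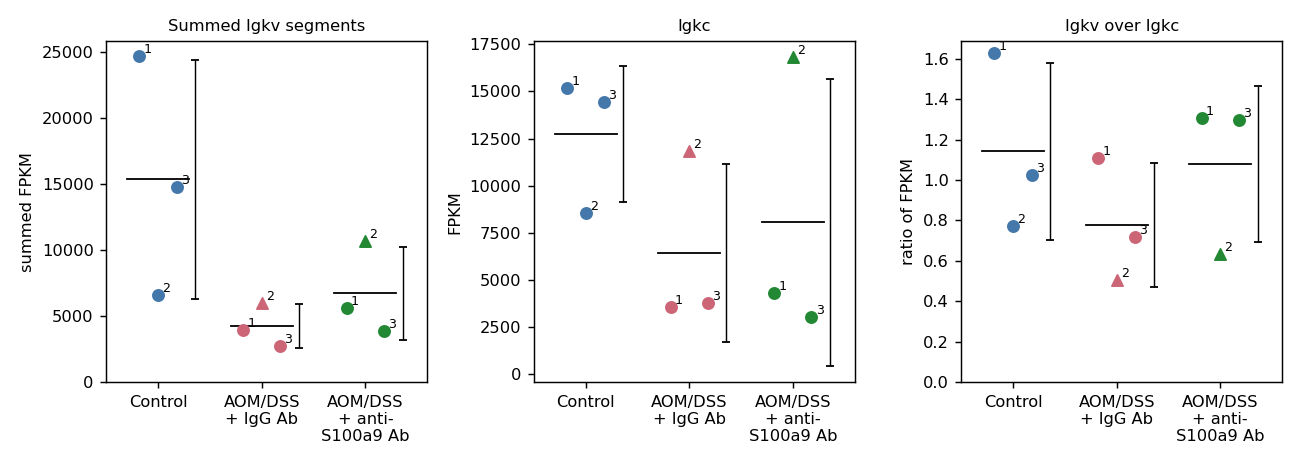
Summed Igkv FPKM, Igkc FPKM and their ratio in each sample by group (numbers give the replicate, triangles are IgG Ab replicate 2 and anti-S100a9 Ab replicate 2, lines are means and bars are SD, n = 3). The 3 IgG Ab samples (2704 to 5994) sit below the Control samples (6624 to 24705) in the first panel, and the triangles sit high for Igkc and low for the ratio.

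Other genes of the B lineage were read beside these sums. The 12 plasma cell genes summed to 1399 to 2276 FPKM in Control, 575 to 1584 in IgG Ab and 587 to 2888 in anti-S100a9 Ab. At the thresholds of the study (unadjusted p under 0.05 and more than 2-fold) 3 were lower and 1 was higher in IgG Ab vs Control, where 5.19% of all genes tested were lower and 8.43% higher. By limma adjusted p under 0.05 none was lower and 2 were higher (3.01% and 8.18% of all genes). Tnfrsf17, a survival receptor of plasma cells, was among the 3, at 7.37 ± 2.05 FPKM in Control and 2.12 ± 1.09 in IgG Ab (n = 3, limma adjusted p = 0.0808). The 2 higher ones were Sdc1, which epithelial cells also make (56.0 FPKM in Control and 131 in IgG Ab, limma adjusted p = 0.0121), and Fkbp11, a folding factor of secretory cells (11.2 and 20.3 FPKM, limma adjusted p = 0.0490). In the other 7 mice, without the 2 libraries, 8 of the 12 were lower and 1 higher at the study's thresholds, where 7.85% and 8.81% of all genes were. The IgG Ab library left out had the highest plasma cell sum of its group (1584 FPKM, against 737 and 575).

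The 12 B cell genes summed to 38.2 to 329 FPKM in Control, 12.5 to 160 in IgG Ab and 71.1 to 296 in anti-S100a9 Ab, and none was at 0 in any sample. None of them passed the thresholds against Control. In anti-S100a9 Ab vs IgG Ab 7 of 12 were higher, where 7.64% of all genes were, but the groups overlapped for each of the 12 and none had a limma adjusted p under 0.05. With the 2 libraries left out 12 of 12 were higher in that comparison (10.5% of all genes), 11 of them by limma adjusted p under 0.05 (3.39% of all genes), and 11 of 12 were lower in IgG Ab vs Control (7.85% of all genes). That fit has 2 mice in each AOM/DSS group. It leaves out the highest B cell sum of IgG Ab (160 FPKM, against 12.5 and 17.5) and the lowest of anti-S100a9 Ab (71.1, against 282 and 296). These counts therefore describe the remaining mice and do not hold over all 9 samples.

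Among the 4 light chain constant genes and the 8 heavy chain constant genes none passed in any comparison over all samples. In limma with Benjamini-Hochberg adjustment, Igkc differed from Control by -1.18 ± 0.82 (log2 fold change ± SE) in IgG Ab, adjusted p = 0.365, and by -1.04 ± 0.82 in anti-S100a9 Ab, adjusted p = 0.527. Without the 2 libraries the differences were -1.75 ± 0.69 and -1.78 ± 0.69 (limma adjusted p = 0.149 and 0.547), and every remaining AOM/DSS mouse lay below every Control mouse. The 2 libraries left out were the only AOM/DSS mice whose Igkc was not below every Control mouse. This separation therefore follows from leaving them out. Pigr, the epithelial receptor that carries IgA into the lumen, was lower in IgG Ab than in Control at the study's thresholds (424 ± 265 vs 905 ± 127 FPKM, n = 3, limma adjusted p = 0.0761). Rag1, needed for rearrangement, stood at or below 0.0309 FPKM in every sample, and Igll1, of the pre-B cell receptor, was listed at 0 in all. Of the other listed genes of rearrangement, Vpreb1 was above 0 in every sample, at 0.0567 to 0.895 FPKM. Dntt stood at 0 to 0.171 FPKM and Rag2 at 0 to 0.0205.

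Markers of other cells also differed between the groups. Of the 4 adipocyte genes 4 were lower in IgG Ab vs Control (5.19% of all genes), 3 of them by limma adjusted p under 0.05 (3.01%). In anti-S100a9 Ab vs Control 3 were lower at the study's thresholds (0.864% of all genes), with none by adjusted p. Of the 8 colon epithelial genes 2 were lower in IgG Ab vs Control (5.19% of all genes) and 0 were called in anti-S100a9 Ab vs Control. In anti-S100a9 Ab vs IgG Ab 3 of them were higher (7.64% of all genes). Of the 6 smooth muscle genes 4 were higher in anti-S100a9 Ab vs IgG Ab (7.64% of all genes), and 1 was without the 2 libraries (10.5%). The part of these genes and cells in the Igkv levels was not tested.

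Single segments were compared with limma on log2(FPKM + 0.1) across all 15278 genes that passed the filter of 0.1 FPKM in at least 3 samples. Of the 100 segments 97 passed, and the other 3, among them Igkv1-131 and Igkv6-29, did not, at 0.912 FPKM or less in every sample. Fold changes are on the scale of log2(FPKM + 0.1), which understates the change of low segments. The standard error of a segment was large, at a median of 1.38 against 0.26 over all genes.

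In IgG Ab vs Control 21 of 97 segments (21.6%) were lower at the thresholds of the study, where 5.19% of all genes tested were lower. One segment was higher, where 8.43% of all genes were. Fold changes were below 0 for 83 segments and above 0 for 14, with a median of -1.91 against 0.09 over all genes. No overlap between the samples was seen for 25 lower and 0 higher segments among the 91 whose mean reached 1 FPKM in either group (9.65% and 22.2% of all genes). By adjusted p, 9 segments were lower (3.01% of all genes) and 0 were higher (8.18%). The lower segments included 5 of 8 tested in Igkv6, 4 of 9 in Igkv3, 5 of 26 in Igkv4 and both of Igkv13. They included 1 of 10 in Igkv8, 0 of 9 in Igkv1, 0 of 6 in Igkv12 and 0 of 4 in each of Igkv9 and Igkv14. Of the 21, 7 belonged to the 26 low segments and 14 did not.

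Igkv6-15, the leading segment of Control replicate 2, was lower in every IgG Ab mouse than in every Control mouse. It stood at 1014, 1276 and 290 FPKM in Control and at 111, 113 and 115 in IgG Ab (log2 fold change -2.67 ± 0.54, limma adjusted p = 0.0187). Igkv10-96 was at 1076, 260 and 702 FPKM in Control and at 130, 234 and 78.5 in IgG Ab (-2.12 ± 0.56, limma adjusted p = 0.0437). As a share of the Igkv total it held 3.93% to 4.75% and 2.90% to 3.90%. Igkv3-5 was at 355, 50.4 and 565 FPKM in Control and at 7.77, 37.2 and 16.4 in IgG Ab (-3.67 ± 0.87, limma adjusted p = 0.0312). Igkv5-39 was at 390, 180 and 206 FPKM in Control and at 29.4, 56.1 and 45.7 in IgG Ab (-2.52 ± 0.62, limma adjusted p = 0.0345). These 4 lie outside the shared low set, and each passed the thresholds without the 2 libraries too. As shares of the Igkv total, however, Control and IgG Ab overlapped for Igkv6-15 (1.97% to 19.3% and 1.89% to 4.26%). They also overlapped for Igkv5-39 (1.39% to 2.72% and 0.741% to 1.69%).

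Falls of members of the low set were smaller without the 2 libraries, which follows from how the set was chosen. Its members were picked for values near 0 in libraries that include IgG Ab replicate 2. Igkv4-63 was at 153, 17.2 and 246 FPKM in Control and at 2.08, 0 and 0.704 in IgG Ab (-7.27 ± 1.89, limma adjusted p = 0.0422), and the fall was -6.03 without the 2 libraries. Igkv3-7 was at 323, 466 and 100 FPKM in Control and at 15.8, 0.581 and 12.2 in IgG Ab (-5.60 ± 1.40, limma adjusted p = 0.0365), and -4.14 without the 2 libraries. Igkv6-25 fell from 40.1 to 5.28 FPKM on average (-3.58 ± 0.77, limma adjusted p = 0.0226), and by -3.03 on the log2 scale without the 2 libraries. Igkv3-2 and Igkv13-84 had log2 fold changes of -5.73 and -5.15 (limma adjusted p = 0.130 and 0.152), and of -3.25 and -3.26 without the 2 libraries.

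Weakly expressed segments were also among the lower ones. Igkv4-71 was at 0.615, 17.7 and 1.79 FPKM in Control and was listed at 0 in all 3 IgG Ab mice (limma adjusted p = 0.0231), and Igkv8-18 was at 31.8, 0.238 and 2.02 FPKM in Control and listed at 0 in all 3 (limma adjusted p = 0.137). No fold is given against a group at 0. The 1 higher segment, Igkv1-35, was named after its values were seen. It was listed at 0 in Control and stood at 0, 3.15 and 8.24 FPKM in IgG Ab (limma adjusted p = 0.131), so the groups overlapped.

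In anti-S100a9 Ab vs Control 14 of 97 segments (14.4%) were lower, where 0.864% of all genes tested were, and 1 was higher, where 2.28% were. The median fold change was -1.23 against 0.04 over all genes, and 74 fold changes were below 0. No overlap was seen for 23 lower and 3 higher of 89 segments, against 15.3% and 18.4% of all genes. By adjusted p 1 segment was lower (0.00655% of all genes) and 0 were higher (0.00655%). Both comparisons with Control use the same 3 Control mice, so they are not independent. Of the 14 lower segments 7 were in the low set.

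The 6 largest falls named by the rule were all of segments in the low set, and each became smaller when the 2 libraries were left out. The low set was chosen for values near 0 in these libraries, which include anti-S100a9 Ab replicate 2. Such a choice favours both outcomes, so they are a description. Igkv3-12 was at 997, 39.3 and 273 FPKM in Control and at 13.0, 0 and 13.0 in anti-S100a9 Ab (-6.42 ± 2.17, limma adjusted p = 0.301), and -4.07 without the 2 libraries. Igkv6-17 was at 230, 195 and 239 FPKM in Control and at 24.9, 0 and 29.6 in anti-S100a9 Ab (-5.71 ± 2.29, limma adjusted p = 0.301), and -3.02 without them. Both groups were separate for these 2 segments with or without anti-S100a9 Ab replicate 2. Igkv4-63, Igkv3-7, Igkv14-111 and Igkv13-85 had log2 fold changes of -5.50, -4.70, -4.44 and -4.18 (limma adjusted p = 0.301 to 0.311), and of -3.37, -3.55, -3.10 and -2.87 without the 2 libraries.

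Igkv1-88 went the other way. It stood at 42.0, 18.9 and 35.8 FPKM in Control, at 19.1, 90.8 and 8.23 in IgG Ab, and at 1071, 198 and 190 in anti-S100a9 Ab. All 3 anti-S100a9 Ab mice were above all 6 others. The log2 fold change was 3.48 ± 0.91 against Control (limma adjusted p = 0.301) and 3.81 ± 0.91 against IgG Ab (limma adjusted p = 0.0238). Leaving out 1 sample at a time gave 2.66 to 3.91 and 2.99 to 4.76, and leaving out the 2 libraries gave 3.88 and 5.16, all past the thresholds. As a share of the Igkv total it was 19.2%, 1.86% and 4.89% in anti-S100a9 Ab and 0.170% to 1.51% in the other 6 mice.

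In anti-S100a9 Ab vs IgG Ab 4 of 97 segments (4.12%) were higher, where 7.64% of all genes tested were, and 1 (1.03%) was lower, where 8.38% were. Both shares were below those of all genes. The median fold change was 0.59 against -0.06 over all genes. No overlap was seen for 4 higher and 1 lower of 90 segments, against 18.2% and 31% of all genes. By adjusted p, 2 segments were higher (6.72% of all genes) and 0 were lower (14.4%).

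The other higher segments stayed at or below 90.3 FPKM in every mouse. Igkv4-71 was at 5.91, 2.52 and 0.995 FPKM in anti-S100a9 Ab and listed at 0 in IgG Ab (limma adjusted p = 0.0209). Igkv8-18 was at 0.907, 90.3 and 1.01 FPKM and listed at 0 in IgG Ab (limma adjusted p = 0.0700), and it did not pass the thresholds without the 2 libraries. Igkv11-125 was at 30.9, 22.01 and 37.1 FPKM against 9.59, 10.7 and 21.5 (log2 fold change 1.17 ± 0.37, limma adjusted p = 0.0533). Igkv18-36, the only member of its family, was lower, at 0, 0.350 and 0 FPKM against 13.6, 1.66 and 0.387 (limma adjusted p = 0.0765).

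Leaving out the 2 libraries raised the number of lower segments to 35 in IgG Ab vs Control (7.85% of all genes) and to 26 in anti-S100a9 Ab vs Control (1.03%), and the number of higher segments to 9 in anti-S100a9 Ab vs IgG Ab (10.5%). When the Igkv rows were scaled to the same Igkv total in each sample, so that use and not amount was compared, 4 segments were lower and 8 higher in the first comparison, 1 lower and 6 higher in the second, and 1 lower and 4 higher in the third. In the main fit 5.19% of all genes were lower and 8.43% higher in the first comparison. The shares were 0.864% and 2.28% in the second, and 8.38% and 7.64% in the third. The 8 higher of 97 tested segments in the first were thus near the share of all genes. Leaving out 1 mouse also moved the counts, which are given here without the share of all genes in the same setting. Without Control replicate 2 alone 39 and 24 segments were lower in the 2 comparisons with Control, without Control replicate 1 alone 14 and 9, and without IgG Ab replicate 2 alone 24 were lower in anti-S100a9 Ab vs Control and 13 higher in anti-S100a9 Ab vs IgG Ab. Without anti-S100a9 Ab replicate 2 alone 36 were lower in IgG Ab vs Control and 7 higher in anti-S100a9 Ab vs IgG Ab. The settings without both libraries and with Igkv scaling were chosen after the data were seen.

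Family shares set out the differences in use. The Igkv1 family, with 10 members, held 8.02%, 8.06% and 8.15% in Control, 18.4%, 8.61% and 15.1% in IgG Ab, and 25.1%, 18.8% and 20.5% in anti-S100a9 Ab. The 3 groups did not overlap, but both margins were narrow. IgG Ab replicate 2 (8.61%) was just above Control, and IgG Ab replicate 1 (18.4%) was just below anti-S100a9 Ab replicate 2 (18.8%). The exact permutation test gave p = 0.1, the smallest possible, for each comparison (adjusted p = 0.6 over 20 families and 3 comparisons). The members behind the share differed between mice. Igkv1-110 and Igkv1-117 together held 15.2% and 13.3% in IgG Ab replicates 1 and 3 and 13.0% in anti-S100a9 Ab replicate 3, Igkv1-133 led in anti-S100a9 Ab replicate 2, and Igkv1-88 led in anti-S100a9 Ab replicate 1. Without Igkv1-88 the share was 7.85%, 7.78% and 7.91% in Control, 17.9%, 7.10% and 14.8% in IgG Ab, and 5.90%, 17.0% and 15.6% in anti-S100a9 Ab. Both AOM/DSS groups then overlapped Control. In the other 7 mice the mean Igkv1 share was 16.8% in IgG Ab and 22.8% in anti-S100a9 Ab, against 8.08% in Control, and no groups overlapped.

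The Igkv3 family, with 9 members, held more in Control. It held 9.31%, 9.83% and 22.5% in Control, 2.86%, 3.44% and 4.71% in IgG Ab, and 2.79%, 5.73% and 5.94% in anti-S100a9 Ab. Each AOM/DSS group lay below Control (exact permutation p = 0.1 for each, the smallest possible, adjusted p = 0.6), and the 2 AOM/DSS groups overlapped. In the other 7 mice the means were 3.79% and 4.36%, against 13.9% in Control, again with no overlap with Control. Outside the 26 low segments the Igkv3 share was 3.13%, 1.34% and 17.4% in Control and 0.565% to 5.71% in the AOM/DSS mice, which overlapped. The Igkv2 family also did not overlap with Control, at 1.43% to 2.12% in Control, 2.25% to 3.86% in IgG Ab and 2.33% to 3.57% in anti-S100a9 Ab. Igkv19 did not overlap in anti-S100a9 Ab vs Control. Igkv18, at a mean of 0.129% or less in each group, did not overlap in IgG Ab vs Control or anti-S100a9 Ab vs IgG Ab. Each of these comparisons had exact permutation p = 0.1, the smallest possible, and adjusted p = 0.6. No family was thus shown to differ between the groups.

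**Figure D5:**
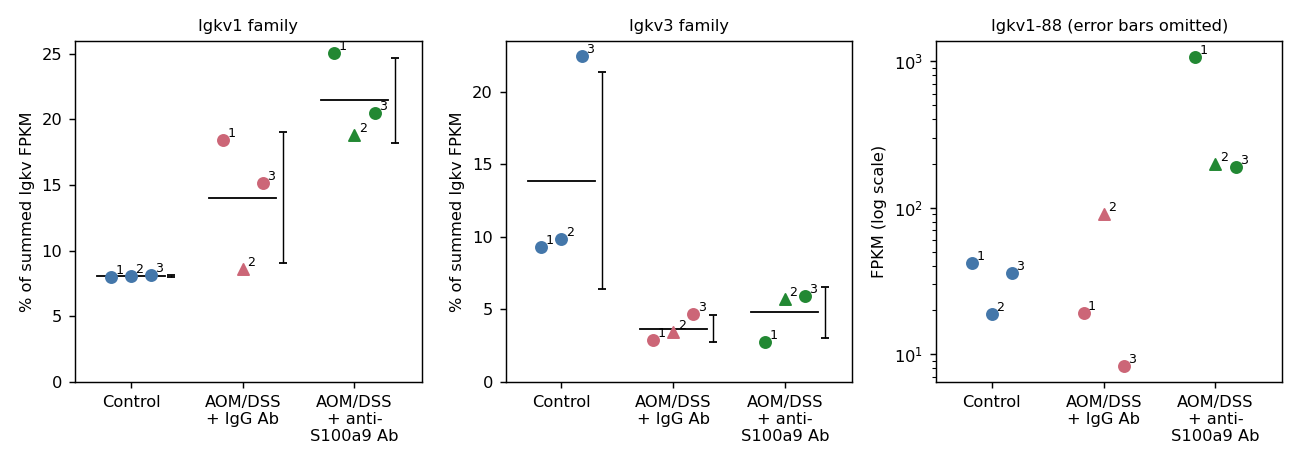
Share of the summed Igkv FPKM held by the Igkv1 and Igkv3 families, and FPKM of Igkv1-88 on a log axis, in each sample by group (numbers give the replicate, triangles are IgG Ab replicate 2 and anti-S100a9 Ab replicate 2; in the first 2 panels lines are means and bars SD, n = 3). The Igkv1 share lies at 8.02% to 8.15% in Control and 18.8% to 25.1% in anti-S100a9 Ab, and Igkv1-88 lies at 190 to 1071 FPKM in that group and at or below 90.8 in the others.

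Position along the locus was compared as well. The 50 segments farther from Igkj1 held 46.0%, 33.0% and 40.4% of the total in Control, 53.1%, 40.3% and 49.0% in IgG Ab, and 50.2%, 48.9% and 52.8% in anti-S100a9 Ab. The anti-S100a9 Ab mice did not overlap with Control (50.6 ± 1.98% vs 39.8 ± 6.50%, SD, n = 3, exact permutation p = 0.1, the smallest possible, adjusted p = 0.3 over 3 comparisons), and IgG Ab overlapped both. Without the 2 libraries neither AOM/DSS group overlapped Control, with means of 51.1% in IgG Ab and 51.5% in anti-S100a9 Ab. Of the 10 Igkv1 members 1 lies among the nearer 50, so the 2 measures are not independent. Segments on the strand opposite to Igkc held 53.9% to 80.1% of the total, and the groups overlapped.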

How the data were processed

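Total RNA of colon tissue from 9 mice was sequenced by the authors, who, per the labels and the submitters' processing notes, used TopHat, Cufflinks, HTSeq and DESeq with GRCm38 (no versions are given in the sources used here). The deposited files hold 1 value per gene and sample. Their unit is not stated and was read as FPKM from the values, scaled by the authors for gene length and depth, and read counts were not used here. How reads shared by similar segments were counted, and whether strand was kept, is not given in the sources used here. Rows with the same symbol were summed (46 of 21544 rows repeat a symbol, none of them Igkv).

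The members and gene lists were chosen with earlier results of these data known. Segment shares are percentages of the summed Igkv FPKM. Because the values are not counts, limma (3.58.1, R 4.3.3, lmFit and eBayes with an intensity trend) was run on log2(FPKM + 0.1) of the 15278 genes that reached 0.1 FPKM in 3 or more samples, with all 9 samples in 1 fit. Segments were called at the thresholds of the study, unadjusted p < 0.05 and a change above 2-fold, and Benjamini-Hochberg adjusted p-values are over all genes tested. The script was checked on simulated data. Single values per mouse were compared by two-sided exact permutation tests. Coding sequences were read from GENCODE M21 and aligned in pairs with Biopython 1.88.

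The text names the 10 segments with the highest mean share, the top 3 of each sample, those with at least 5% in a sample and 3 times their median elsewhere, up to 6 largest falls and rises per comparison that passed the thresholds with at least 1 FPKM in a group and no overlap, those with an adjusted p under 0.05, and the listed B-lineage genes. One segment covered by this rule is not reported here by name. Other pseudocounts, filters, scalings, fits, a block on replicate number and leaving out each sample were tried.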

Additional observations from a re-analysis of the deposited data

How the results depend on the processing

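Groups of 3 mice limited every test, and depth per library was known only roughly. The counts in this section are of Igkv segments alone, without the share of all genes in the same setting. The number of lower segments in IgG Ab vs Control (21) became 9 by adjusted p under 0.05, 35 without the 2 libraries with the shared low segments, 4 with Igkv rows scaled to the same Igkv total and 6 with both changes, and lay between 14 and 39 when 1 sample was left out. The 14 was without Control replicate 1, the 39 without Control replicate 2, and 36 were lower without anti-S100a9 Ab replicate 2. Higher segments (1) became 0 by adjusted p, in a fit of the 2 groups alone, with at least 1 FPKM in 3 samples and without the 2 libraries, and 8 and 10 with Igkv scaling with and without those libraries (0 to 2 when 1 sample was left out, with 2 without IgG Ab replicate 1 and 0 without IgG Ab replicate 2, Control replicate 2 or Control replicate 3). In anti-S100a9 Ab vs Control the 14 lower segments became 1 by adjusted p, 24 in a fit of the 2 groups alone, 26 without the 2 libraries, and 1 and 6 with Igkv scaling with and without them (9 without Control replicate 1 to 24 without Control replicate 2 or IgG Ab replicate 2). The 1 higher segment became 0 by adjusted p, 3 in a fit of the 2 groups alone, 2 with a pseudocount of 1 FPKM, and 6 and 8 with Igkv scaling (1 to 4 when 1 sample was left out, with 4 without IgG Ab replicate 1 and 2 without Control replicate 1, Control replicate 3 or IgG Ab replicate 2). In anti-S100a9 Ab vs IgG Ab the 1 lower segment became 0 by adjusted p, 2 in a fit of the 2 groups alone and 5 with Igkv scaling and without the 2 libraries (0 without anti-S100a9 Ab replicate 1 or 3, otherwise 1). The 4 higher became 2 by adjusted p, 9 without the 2 libraries and 8 with Igkv scaling as well (4 to 13 when 1 sample was left out, with 13 without IgG Ab replicate 2 and 7 without anti-S100a9 Ab replicate 2). Where the adjusted p or Igkv scaling lowered a count, the setting itself is stricter or removes differences in amount, and for the other changes the cause was not tested. Relative to Igkc the summed level difference from Control became -0.56 in IgG Ab and -0.0895 in anti-S100a9 Ab (log2), and -0.287 and 0.258 with the 2 libraries left out as well, which turned the direction of the second. The other summed level, evenness and top share values moved by less than 1 SD under each alternative, although some changed sign. Top share differences ranged from -4.37 to 1.89 percentage points in IgG Ab vs Control (-1.78, above 0 without Control replicate 2) and from -0.35 to 5.90 in anti-S100a9 Ab vs Control (2.23, below 0 without anti-S100a9 Ab replicate 1 or Control replicate 3) when 1 sample was left out. Of the evenness differences, IgG Ab vs Control (-1.01) became 3.45 without the 2 libraries and 4.19 outside the low segments (-4.17 to 3.45 when 1 sample was left out), anti-S100a9 Ab vs Control (-5.07) became 3.08 outside the low segments, and anti-S100a9 Ab vs IgG Ab (-4.06) ranged from -10.7 to 0.06 when 1 sample was left out.

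With the replicate number as a block (replicate block) 42 segments were lower in IgG Ab vs Control, 32 lower and 3 higher in anti-S100a9 Ab vs Control, and 3 lower and 8 higher in anti-S100a9 Ab vs IgG Ab. These counts too are given without the share of all genes in that fit, so they are not read as a result about the segments. Over all genes the deviations of same-numbered samples correlated at -0.19 to 0.25, so the numbers were not taken to pair the mice. Over the Igkv segments alone the correlations for numbers 1 to 3 were 0.58, 0.83 and 0.56 in anti-S100a9 Ab vs IgG Ab, where 6 of 6 samples correlated best with their own number, and -0.06 to 0.21 in the comparisons with Control. Each deviation was from a mean over 3 mice. The segments low in replicate 2 of both groups therefore shifted numbers 1 and 3 the same way in both groups. The 3 correlations are thus not independent, and 0.58 and 0.56 are not separate from the likeness of those 2 libraries. The summed Igkv level was higher in anti-S100a9 Ab than in the same-numbered IgG Ab mouse for 3 of 3 numbers, by 0.49, 0.83 and 0.52 on the log2 scale. This is an observation in the data, and the design gives no pairing by number.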
